A study of Schizosaccharomyces pombe with 6 samples.

Results

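The thiamine synthesis, uptake and thiamine-repressed genes of the fission yeast Schizosaccharomyces pombe were followed across the 6 RNAseq libraries of a nitrogen starvation study. The 7 genes were taken by their identifiers, out of 7001 genes counted: nmt1 (SPCC1223.02), thi2 (SPBC26H8.01), thi4 (SPAC23H4.10c), thi9 (SPAC9.10), bsu1 (SPAC17A2.01), pho4 (SPBC428.03c) and thi1 (SPAC1486.10). The study looked at how the Endosulfine protein Igo1 and the phosphatase PP2A/B55, which Igo1 inhibits, shape the entry into quiescence. All cells were haploid h- strains. They were held at 25 °C for 4 h after nitrogen had been removed from the minimal medium, and each of 3 groups had 2 libraries, given as separate biological replicates. The wild type (WT) was the strain 972, the second group was labelled h- igo1::kanMX6 with the genotype igo1 knockdown (here libraries labelled igo1Δ), and the third h- nmt41-GST-pab1-KanMx6 igo1::natMx6 (here the pab1-repressed libraries). In the third group pab1, which encodes the B55 regulatory subunit, sits under the nmt41 promoter at its own locus, so that thiamine represses it. The growth notes shared by all samples name thiamine in the minimal medium and in the washes for all 3 strains. The paper's RNAseq methods name none, but they do not describe the nmt41-GST-pab1 strain and may concern other cultures. nmt1, which thiamine shuts off, held 146558 to 202812 reads in the WT libraries and those labelled igo1Δ, and 66 and 49 in the pab1-repressed libraries. Such levels stand beside notes that name thiamine for every strain, and which cultures held it was not tested. No group differs from another in thiamine alone by its labels, so thiamine, the promoter allele and any lowering of pab1 cannot be told apart.

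Thiamine (vitamin B1) is built from a pyrimidine and a thiazole ring that are made separately and then joined, and its diphosphate is the cofactor of enzymes such as pyruvate decarboxylase, transketolase and pyruvate dehydrogenase. Fission yeast cells that find thiamine in the medium shut off the genes for making and importing it, and nmt1, whose name stands for no message in thiamine, is the best known of these genes. Its promoter is widely used to switch genes on and off in this yeast, and nmt41 is a weakened form of it with an altered TATA box. The transcription factors Thi1 and Thi5 are needed for expression of the pathway without thiamine.

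The 80 bases before the annotated start of 4 of these genes, and of 2 further thiamine genes described below, are shown. Each stretch holds TATAAA, alone (thi4 and pho4) or within ATATATAAA, the TATA element of nmt1, by which the nmt promoters differ. The bases were read on each gene's own strand from the RefSeq assembly ASM294v3. Capitals mark ATATATAAA, or TATAAA where the longer form is absent. The longer motif contains the shorter one. nmt1 lies on chromosome III (plus strand), thi2 on II (plus strand), thi4 on I (plus strand), and pho4, thi201 and SPBC530.07c on II (minus strand).
nmt1: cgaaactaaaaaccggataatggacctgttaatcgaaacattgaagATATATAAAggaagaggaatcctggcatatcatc
thi2: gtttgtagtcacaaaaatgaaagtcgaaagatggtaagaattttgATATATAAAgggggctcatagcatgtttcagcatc
thi201: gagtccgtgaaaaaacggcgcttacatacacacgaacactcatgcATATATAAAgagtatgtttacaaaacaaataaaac
SPBC530.07c: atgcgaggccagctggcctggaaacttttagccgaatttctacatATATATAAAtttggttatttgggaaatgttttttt
thi4: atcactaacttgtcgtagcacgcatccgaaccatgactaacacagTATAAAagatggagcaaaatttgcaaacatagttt
pho4: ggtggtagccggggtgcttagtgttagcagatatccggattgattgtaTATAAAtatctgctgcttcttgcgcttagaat

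The first A of ATATATAAA stands 34 bases before the start of nmt1 and 35 bases before those of thi2, thi201 and SPBC530.07c. On the gene's strand this motif was found in 2 of the 7 genes and in 25 of 5112 windows of the same length before protein-coding genes (0.489%), and TATAAA in 4 of the 7 and in 444 of 5112 windows (8.69%). With both strands counted, the shares of windows were 0.763% and 14.4%. The longest stretch that the 250 bases before nmt1 and thi2 share is gatatataaagg, 12 bases long, which 3 of the 5112 windows of 250 bases held. That count took either strand and includes the windows of nmt1 and thi2 themselves. In thi9, bsu1 and thi1 neither motif was in the 80 bases before the start on the gene's strand. A match of this kind describes the sequence only.

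Between 14791399 and 18809513 reads fell on genes in each library (median 16876113). The labels were checked on igo1 and pab1. Reads on igo1 did not vanish in the libraries labelled igo1Δ: 1876 and 2098 reads lay on it in the WT libraries, 1693 and 1478 in those labelled igo1Δ and 2307 and 5035 in the pab1-repressed libraries, so the deletion is not visible at this gene and directions below rest on the labels. pab1 held 2853 and 3027 reads in the WT pair, 2182 and 1819 in the libraries labelled igo1Δ, and 2296 and 1078 in the pab1-repressed libraries, a log2 difference from the libraries labelled igo1Δ of -0.73 ± 0.33 (SE, limma, adjusted p = 0.199). The replicates of the pab1-repressed group stood far further apart than those of the other groups, with a chi-square per gene of 429.6, against 41.5 in the libraries labelled igo1Δ and 9.57 in WT. The part of this spread in the results was not tested beyond leaving out each library in turn.

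Set by transcript length, nmt1 was the most abundant of the 7 messages in WT and the least abundant in the pab1-repressed libraries. Levels here are RPM (reads scaled to a common library size by TMM) per kilobase of exon, as mean ± SD of 2 libraries. In WT nmt1 stood at 8898 ± 543, and among 5111 protein-coding genes it ranked at place 2 in both libraries. thi2 followed at 3729 ± 388, at places 8 and 11. The phosphatase pho4 (330.1 ± 6.62), the transporter gene thi9 (220.04 ± 12.07) and bsu1 (187 ± 10.7) came next, and thi4 (81.9 ± 1.80) and the regulator thi1 (32.9 ± 0.142) were lowest. No neighbours in this WT order overlapped between libraries. In the libraries labelled igo1Δ nmt1 (9314 ± 2546) and thi2 (3299 ± 292) again led, followed by pho4 (716 ± 124) and bsu1 (649 ± 129), whose libraries overlapped, with thi9 at 267 ± 25.7, thi4 at 122 ± 3.12 and thi1 at 32.1 ± 0.778. In the pab1-repressed libraries nmt1 stood at 2.34 ± 0.196, at places 4861 and 4880 of the 5111 genes, while the means of the other 6 genes lay between 13.8 and 52.5. There thi2, pho4, thi9, bsu1 and thi1 followed each other with neighbours that overlapped within 1 SD, and thi4 (13.8 ± 6.001) lay below them. Together the 7 genes took 1.81% and 1.85% of all reads in the WT pair, 1.48% and 1.70% in the libraries labelled igo1Δ, and 0.0378% and 0.0460% in the pab1-repressed libraries.

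**Figure D1:**
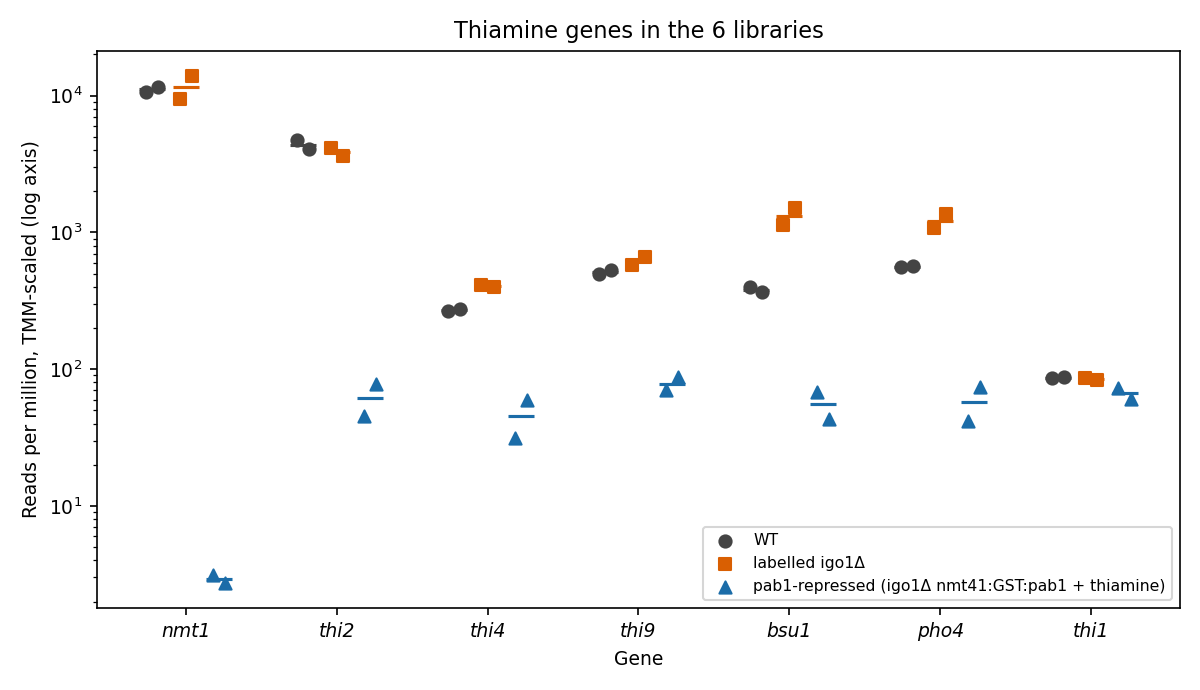
TMM-scaled RPM (log axis) of the 7 thiamine genes in each library, with points for the 2 libraries of WT, the libraries labelled igo1Δ and the pab1-repressed group, and a line at each group's mean. nmt1 lay at 9392 or above in WT and in the libraries labelled igo1Δ and at 3.10 and 2.76 in the pab1-repressed ones, whereas thi1 lay between 60.6 and 87.0 throughout. The legend names thiamine for the pab1-repressed group only, while the growth notes name it for every strain.

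The first comparison set the pab1-repressed libraries against the libraries labelled igo1Δ. PP2A/B55 activity was not measured, and thiamine, the promoter allele and any lowering of pab1 cannot be told apart in this comparison. Of the 7 genes, 6 fell and the regulator thi1 did not pass the test. Over all 6046 genes tested 6.12% were called lower and 2.91% higher, at an adjusted p under 0.05. In all 7 genes both pab1-repressed libraries lay below both libraries labelled igo1Δ, as they did for 33.4% of all genes tested. The median log2 change of the 7 genes was -4.47, and that of all genes tested 0.00. In bulk RNA, fewer cells with a message and less message per cell cannot be told apart. The values of each gene below are TMM-scaled RPM, folds are ratios of group means of these values, and log2 changes and p-values come from limma on the deposited normalized counts plus 1, with ± for the SE of a log2 change.

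The largest fall among the 6046 genes tested was that of nmt1, a gene of the pyrimidine branch. nmt1, which encodes the synthase of the pyrimidine precursor, stood at 10643 and 11602 RPM in WT, 9392 and 13893 in the libraries labelled igo1Δ, and 3.10 and 2.76 in the pab1-repressed libraries. The raw reads behind these were 165916 and 197645, 146558 and 202812, and 66 and 49. The pab1-repressed libraries thus held a trace of nmt1 message, far under every other library and above the 3 reads taken as the limit of detection. The fold was 3976, and the log2 change was -11.93 ± 0.26 (SE, limma, adjusted p = 0.00111), which placed nmt1 at rank 1 of 6046 genes from the lowest.

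Genes of the thiazole branch and of the joining step also fell. thi2, the thiazole synthase, stood at 4115 and 3630.4 RPM in the libraries labelled igo1Δ and at 45.6 and 77.7 in the pab1-repressed libraries. It was 62.8-fold lower, with a log2 change of -6.05 ± 0.31 (SE, limma, adjusted p = 0.00440), rank 10 from the lowest. thi4, whose protein phosphorylates the thiazole and joins it to the pyrimidine, stood at 412 and 398 RPM against 31.6 and 59.7. Its change of -3.25 ± 0.33 (SE, limma, adjusted p = 0.0152) was 8.87-fold, at rank 93. The groups did not overlap for either gene, and in both of them the pab1-repressed replicates differed from each other by more than those labelled igo1Δ did on the log scale. The folds of nmt1 and thi2, which make the rings, were larger than that of thi4, which joins them.

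Both carriers of the plasma membrane fell. thi9, the proton-coupled thiamine transporter, stood at 579.8 and 665 RPM in the libraries labelled igo1Δ and 70.0 and 86.9 in the pab1-repressed libraries, a log2 change of -3.02 ± 0.21 (SE, limma, adjusted p = 0.00771). bsu1, annotated as a vitamin B6 importer, stood at 1134 and 1505 against 68.6 and 42.9, a change of -4.61 ± 0.32 (SE, limma, adjusted p = 0.00771). The pab1-repressed levels of bsu1, nmt1 and thi1 were lower in replicate 2, while those of thi2, thi4, thi9 and pho4 were lower in replicate 1. By group means thi9 was 7.93-fold and bsu1 23.7-fold lower, and neither gene overlapped between the groups.

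pho4, the thiamine-repressible acid phosphatase of the cell surface, stood at 1072 and 1370.1 RPM in the libraries labelled igo1Δ and at 41.9 and 73.5 in the pab1-repressed libraries. It was 21.2-fold lower, with a log2 change of -4.47 ± 0.33 (SE, limma, adjusted p = 0.00841). The regulator thi1, a DNA-binding activator of the pathway, stood at 86.1 and 83.2 RPM against 73.3 and 60.6. These libraries did not overlap, but the log2 difference of -0.37 ± 0.20 did not pass the test (limma, adjusted p = 0.257). It passed only when pab1-repressed replicate 1 was left out, at -0.52 (limma, adjusted p = 0.00334). The 6 other genes were called lower in each of the 13 alternative settings run for this comparison.

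**Figure D2:**
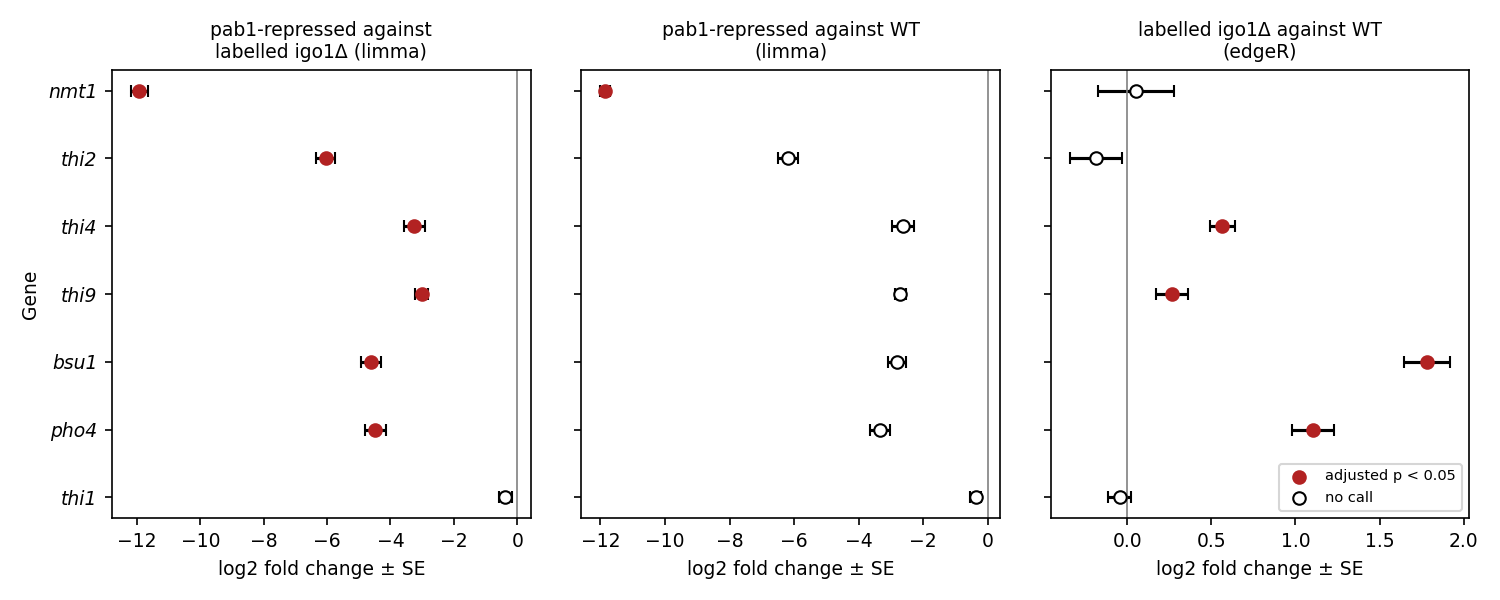
Log2 fold change ± SE (horizontal axes) of the 7 genes (vertical axis) in the comparison of the pab1-repressed libraries with the libraries labelled igo1Δ (left, limma) and with WT (middle, limma), and of the libraries labelled igo1Δ with WT (right, edgeR), where filled points passed an adjusted p of 0.05. nmt1 stood at -11.93 and -11.86 in the left and middle panels and at 0.05 in the right panel.

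Against WT the same genes were low in the pab1-repressed libraries, but only nmt1 passed the test. This comparison shares its pab1-repressed libraries with the one above. All 7 genes were lower in both pab1-repressed libraries than in both WT libraries, as were 28.8% of the 6035 genes tested, and 1 of the 7 was called lower, against 0.0331% of all genes. nmt1 was 3798-fold lower, a log2 change of -11.86 ± 0.15 (SE, limma, adjusted p = 0.000821), again at rank 1 of 6035 genes. thi2, at 4699.55 and 4056 RPM in WT, stood 71.0-fold lower and took rank 2, with a difference of -6.19 ± 0.31 (limma, adjusted p = 0.0709). The differences of pho4 (-3.33), bsu1 (-2.80), thi9 (-2.71) and thi4 (-2.64) took ranks 14, 22, 25 and 26 from the lowest, with limma adjusted p of 0.123, 0.123, 0.102 and 0.142, and that of thi1 was -0.37 (adjusted p = 0.325). The median over the 7 genes was -2.80, and over all genes -0.01.

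In this comparison limma called 2 genes of all those tested, while 1108 genes, 6 of the 7 among them, had an unadjusted p under 0.05. DESeq2 on the recovered reads called 347 genes (194 higher and 153 lower) and 6 of the 7 (all but thi1), among them thi2 (adjusted p = 4.18e-58) and pho4 (2.96e-15), and edgeR called 2 genes, nmt1 and thi201, neither of them higher. Leaving out WT replicate 1 or 2 gave calls for 2 of the 7 (nmt1 and thi2). Leaving out pab1-repressed replicate 1 or replicate 2 gave calls for all 7, with 4210 and 3639 genes called in all, when the spread came from the WT libraries alone.

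The libraries labelled igo1Δ were then set against WT after nitrogen removal. This is a comparison of labels, as the deletion was not visible in the reads on igo1. Here nmt1, thi2 and thi1 did not pass the test, while thi4, thi9, bsu1 and pho4 were called higher. Of these, only bsu1 was still called in a fit of all 6 libraries. Of the 7 genes 4 were called higher and 0 lower by edgeR (0 lower also at an unadjusted p under 0.05 and by DESeq2), where 29.6% of the 5931 genes tested were called higher and 30.1% lower. No overlap between groups, with the libraries labelled igo1Δ higher, was seen for 4 of the 7 and for 39.9% of all genes. The median log2 change was 0.26 for the 7 genes and -0.03 for all genes.

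bsu1 had the largest change of the 7, from 396 and 365 RPM in WT to 1134 and 1505 in the libraries labelled igo1Δ. The log2 change was 1.78 ± 0.14 (SE, edgeR, adjusted p = 1.23e-05), a 3.47-fold rise that placed it at rank 255 from the highest of 5931 genes. pho4 rose from 555 and 571 to 1072 and 1370.1, by 1.10 ± 0.12 (SE, edgeR, adjusted p = 0.000108), or 2.17-fold. Both genes were thus higher in every library labelled igo1Δ than in every WT library and, as given above, lowest in the pab1-repressed libraries. thi4 rose from 267 and 276 to 412 and 398, by 0.57 ± 0.07 (SE, edgeR, adjusted p = 0.000265), or 1.49-fold. In a fit of all 6 libraries, in which the wide spread of the pab1-repressed group enters the error, bsu1 was still called (1.795, adjusted p = 0.0182) but pho4 (adjusted p = 0.0653) and thi4 (adjusted p = 0.248) were not.

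thi9 rose slightly, from 494 and 533 RPM to 579.8 and 665, a log2 change of 0.26 ± 0.10 (edgeR, adjusted p = 0.0403). That call was lost in 5 of 10 alternatives, among them leaving out WT replicate 1 (adjusted p = 0.353), WT replicate 2 (0.145) or replicate 2 of the libraries labelled igo1Δ (0.0526). nmt1, at 10643 and 11602 against 9392 and 13893 RPM, overlapped between the groups, and its difference of 0.05 ± 0.23 (edgeR, adjusted p = 0.852) had no stable sign. It was 0.33 without replicate 1 of the libraries labelled igo1Δ (adjusted p = 0.0131, called higher), -0.24 without their replicate 2 (adjusted p = 0.0304, called lower) and -0.06 with upper-quartile scaling. The difference of thi2 was -0.19 ± 0.15 (edgeR, adjusted p = 0.318) and that of thi1 -0.05 ± 0.07 (edgeR, adjusted p = 0.589). Upper-quartile scaling moved the median of all genes in this comparison from -0.03 to -0.14 and the calls from 1754 higher and 1785 lower to 1467 and 2278, and with it bsu1 (1.67), pho4 (0.99) and thi4 (0.45) were still called higher.

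Of the 3 transcripts around nmt1, 1 was called lower in the pab1-repressed group than in the libraries labelled igo1Δ, where 6.12% of all genes were called lower. Their reads are given here without scaling for depth. A noncoding RNA, SPNCRNA.1234, covers all 1250 bases of nmt1 on the opposite strand and had 445 and 702 reads in the WT pair, 510 and 768 in the libraries labelled igo1Δ and 845 and 682 in the pab1-repressed libraries. These groups overlapped, and its log2 difference between the pab1-repressed libraries and those labelled igo1Δ was -0.11 ± 0.29 (limma, adjusted p = 0.804). The gene upstream on the same strand, hel2, a ubiquitin ligase gene, had 1120 and 1077, 1110 and 1210, and 1494 and 928 reads (-0.37 ± 0.24, limma, adjusted p = 0.335). Downstream, 122 bases from nmt1, SPNCRNA.1235 had 387 and 311, 1023 and 943, and 565 and 459 reads, and it was higher in the libraries labelled igo1Δ than in WT (1.59 ± 0.14, edgeR, adjusted p = 2.23e-05) and lower again in the pab1-repressed group (-1.34 ± 0.18, limma, adjusted p = 0.0247). It was the 1 gene called lower in that comparison among the 14 tested of the 18 genes that overlap or neighbour the 7, beside 6.12% of all genes. The library kit marks strand, and the strand setting of the counting is not given in the sources used here. nmt1 lies wholly opposite SPNCRNA.1234 and yet held 165916 reads in WT replicate 1 against 445, and cdb4, which lies wholly opposite thi4, held 669 reads in replicate 1 of the libraries labelled igo1Δ against 6432 on thi4. Reads of the opposite strands were thus counted apart at both loci.

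**Figure D3:**
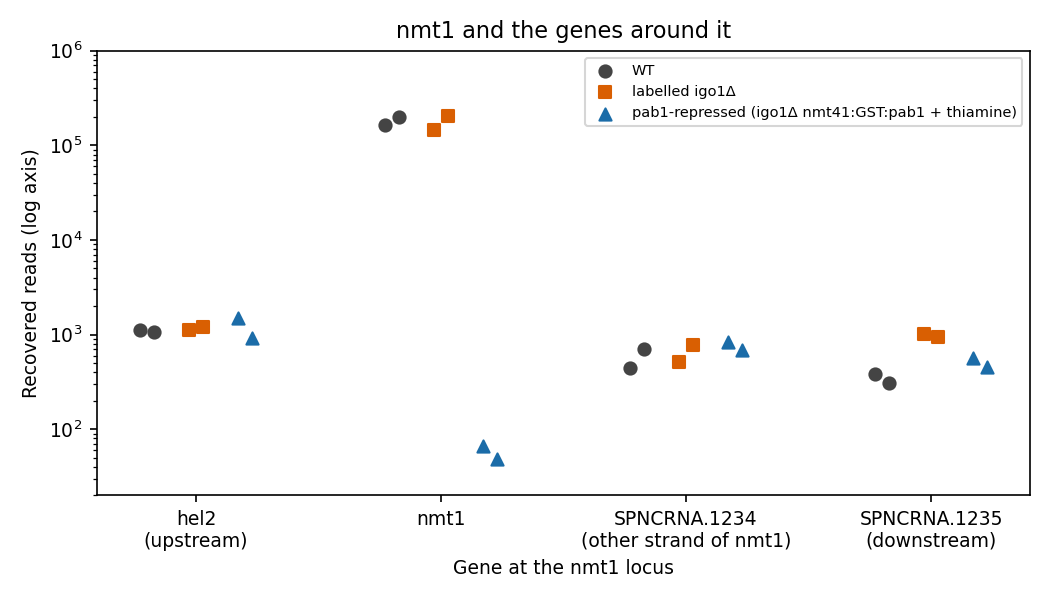
Recovered reads (log axis, without scaling for depth) of nmt1, of the RNA on its other strand and of its nearest genes on either side, with points for the 2 libraries of each group. The pab1-repressed points lay at 66 and 49 for nmt1 and between 459 and 1494 for the other transcripts.

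Beyond the 7 genes, 9 others were taken by annotated product or by fixed symbol (here further thiamine genes). They include the acid phosphatase gene pho1, whose annotation does not name thiamine. Of the 9, 6 were called lower in the pab1-repressed group against the libraries labelled igo1Δ, with 0 higher (median -1.83). The median of all genes was 0.00, and 6.12% of them were called lower. The thiamine transporter gene SPCC794.03 had 3040 and 3640 reads in the WT pair, 9908 and 8082 in the libraries labelled igo1Δ and 389 and 134 in the pab1-repressed libraries. By group means it was 46.0-fold lower than in the libraries labelled igo1Δ, a log2 change of -5.68 ± 0.46 (limma, adjusted p = 0.00946). thi201, a phosphomethylpyrimidine kinase gene with the nmt1 TATA element shown above, had 6242 and 6967, 6999 and 8129, and 548 and 475 reads, and changed by -4.28 ± 0.20 (limma, adjusted p = 0.00431). Against WT it changed by -3.94 ± 0.13 (limma, adjusted p = 0.0197) and was, with nmt1, the other gene called there. SPBC530.07c, a TENA/THI family gene with the same element, had 3263 and 3615, 4127 and 4391, and 613 and 256 reads (-3.81 ± 0.38, limma, adjusted p = 0.0141).

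Smaller changes in the same comparison were those of a second kinase gene of this kind, SPCC18B5.05c (-2.79, limma, adjusted p = 0.0268), of the thiamine pyrophosphate transporter gene SPBC1604.04 (-1.83, adjusted p = 0.0227) and of thi5, which encodes the other transcription factor of the pathway (-1.26, adjusted p = 0.0235). The kinase gene thi20 (-0.54, limma, adjusted p = 0.124), tnr3 for the thiamine diphosphokinase (-0.38, adjusted p = 0.201) and the low-count acid phosphatase gene pho1, at 8 to 38 reads (0.59, adjusted p = 0.482), did not pass. Of these 9 genes, 1 was called lower than in WT by limma and by edgeR and 6 by DESeq2, and 8 were lower at an unadjusted p under 0.05 (median -1.19). No overlap with WT, on the lower side, was seen for 8 of the 9 and for 28.8% of all genes. Between the libraries labelled igo1Δ and WT, 7 of the 9 were called higher by edgeR, beside 29.6% of all genes (median 0.41), the largest change being that of SPCC794.03 (1.53 ± 0.10, adjusted p = 4.18e-06).

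Of 9 genes for enzymes that use thiamine diphosphate 8 were tested (pdc102 had 0 to 3 reads), and 2 of the 8 fell in the pab1-repressed libraries against those labelled igo1Δ, where 6.12% of all genes were called lower. They were ilv1 for acetolactate synthase (-2.20 ± 0.26, limma, adjusted p = 0.0198) and pdb1 for a pyruvate dehydrogenase subunit (-1.60 ± 0.27, limma, adjusted p = 0.0377). Both had risen in the libraries labelled igo1Δ over WT, by 1.87 and 1.32, with pda1 (1.02) and pdc201 (0.85) the other 2 of 4 called higher there by edgeR, beside 29.6% of all genes. No gene of this list was called against WT in the pab1-repressed libraries (median -0.23, 0 of 8 by limma, also at an unadjusted p under 0.05 and by edgeR and DESeq2). The pyruvate decarboxylase gene pdc101 had 113096 and 117646 reads in the WT pair, 87783 and 115589 in the libraries labelled igo1Δ, and 147163 and 28871 in the pab1-repressed libraries, whose replicates stood further apart than those of the other groups.

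Vitamin B6 genes were followed because bsu1 is annotated as a B6 carrier. Of 13 genes, 6 were called lower and 1 higher in the pab1-repressed group than in the libraries labelled igo1Δ (median -0.94), where 6.12% of all genes were called lower and 2.91% higher. Between the libraries labelled igo1Δ and WT 7 of the 13 were called higher and 3 lower (median 0.40), where the shares of all genes were 29.6% and 30.1%. snz1, the pyridoxal phosphate synthase gene, had 4117 and 4471 reads in the WT pair, 24866 and 35443 in the libraries labelled igo1Δ and 1675 and 1668 in the pab1-repressed libraries. It rose by 2.92 ± 0.19 (edgeR, adjusted p = 3.97e-06) and showed a log2 change of -4.54 ± 0.28 in the pab1-repressed libraries against those labelled igo1Δ (limma, adjusted p = 0.00684). Its partner sno1 had 604 and 715, 5187 and 5361, and 550 and 751 reads, so that its pab1-repressed libraries overlapped WT. SPCC965.13, annotated as a membrane transporter of the pyridoxal family, moved the other way, with 21930 and 27787, 9436 and 9120, and 49002 and 97177 reads (2.50 ± 0.46 against the libraries labelled igo1Δ, limma, adjusted p = 0.0443). Against WT 0 of the 13 were called in the pab1-repressed libraries by limma (median -0.24), with 3 lower at an unadjusted p under 0.05, 2 called lower by DESeq2 and 0 by edgeR.

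**Figure D4:**
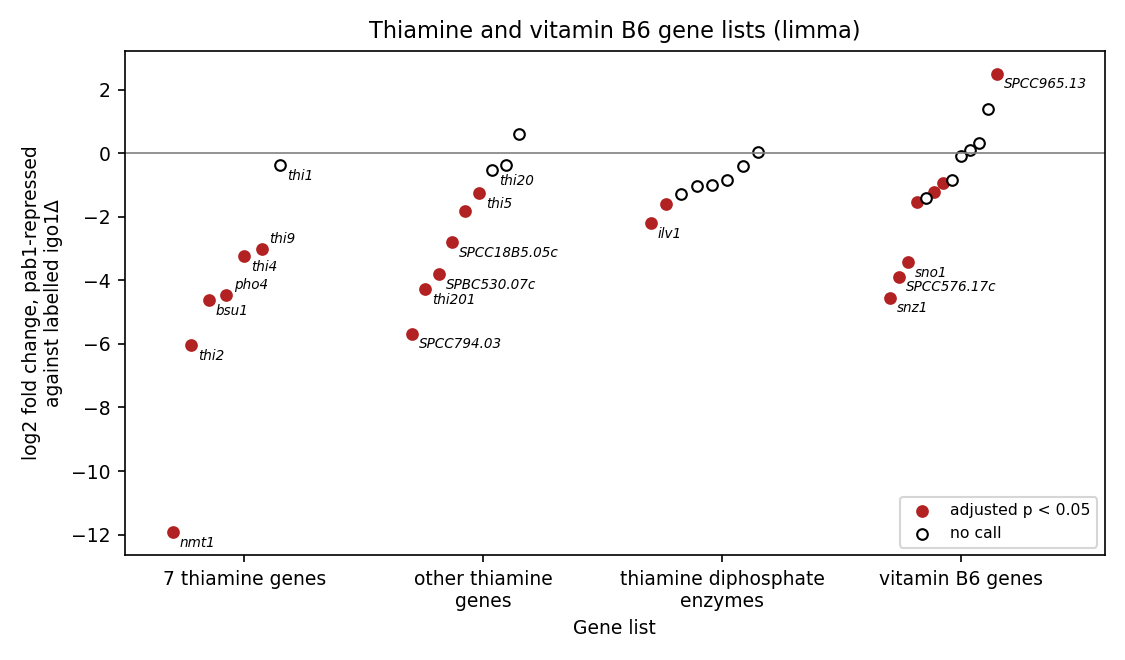
Log2 fold change (vertical axis, limma) between the pab1-repressed libraries and the libraries labelled igo1Δ for the genes of 4 lists (horizontal axis), ordered within each list by change, with filled points for an adjusted p under 0.05. 6 of the 7 thiamine genes, 6 of 9 further thiamine genes, 2 of 8 enzymes that use thiamine diphosphate and 6 of 13 vitamin B6 genes were called lower.

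Genes whose levels followed nmt1 most closely were described by Pearson's r of log2 RPM plus 1 over the 6 libraries, among 6030 genes. thi201 ranked at 1 (r = 0.998), thi2 at 4 (0.995) and thi9 at 6 (0.994). The other genes next to nmt1 in this order, SPAC1B1.02c (0.996), adf1 (0.995), ost1 (0.994) and vph1 (0.993), belonged to none of the lists above, and their reads spanned far narrower ranges than those of nmt1, such as 3871 to 8056 over the libraries for adf1 and 1151 to 1385 for SPAC1B1.02c. thi4 (0.967), pho4 (0.963), bsu1 (0.919) and thi1 (0.903) ranked at 69, 83, 229 and 278. The r values rest on 6 points in which the 2 pab1-repressed libraries lie far from the other 4, and they do not depend on the size of the change.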

How the data were processed

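RNAseq was made from total RNA of 6 S. pombe cultures with a stranded total RNA kit. The labels name extraction in TRIzol. The paper's RNAseq methods name a column kit, but they do not describe the nmt41-GST-pab1 strain and may concern other cultures. Per the submitters' processing notes, FastQC 0.11.8, Trimmomatic 0.38, HISAT2 2.1.0, featureCounts of Subread 1.6.3 and DESeq2 were used with the genome build ASM294v2. The settings for strand and for reads with several matches are not given in the sources used here. The deposited values are a signal per gene: read counts that the authors divided by DESeq2 size factors, in 2 tables of 4 libraries scaled separately, with the pab1-repressed libraries in both. Columns of other samples not used numbered 0.

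Each column was divided by its smallest positive value, which gave whole reads for 100% of values within 0.01 and the same reads for libraries present in both tables. The libraries labelled igo1Δ and WT share no table, so they were compared on these reads with edgeR 4.0.16 (quasi-likelihood, TMM, mean reads of 10 or more, R 4.3.3). The other comparisons used limma 3.58.1 with trend on log2(value + 1) within a table (mean of at least 10), a scale that understates the change of low genes. Calls are Benjamini-Hochberg adjusted p under 0.05 over all genes tested. SEs of edgeR changes are the change divided by the square root of F. With 2 libraries per group, p-values measure the spread between these replicates. The fits were also run on simulated reads with the same spread in every library. That setting lacks the unequal spread between groups seen here, so it does not show how the fits behave under it.

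Text names all 7 genes, other thiamine genes and enzymes that use thiamine diphosphate by annotated product or fixed symbol, vitamin B6 genes, overlapping and nearest genes, the 5 non-members most like nmt1, up to 10 genes over 4-fold lower in the pab1-repressed libraries than in both other groups, igo1 and pab1. The 7 genes and these lists were chosen with earlier results of these data known. Annotation came from RefSeq ASM294v3, matched for 6852 of 7001 identifiers (97.9%). It is not the build of the counts, so only names, neighbours, lengths and sequences before gene starts were taken from it. None of the 7 genes or 9 further thiamine genes had a 50-base stretch repeated elsewhere in that assembly (0%). Alternatives were DESeq2 1.42.0, edgeR, upper-quartile scaling, other pseudocounts (0.1 and 10), no filter or a minimum of 50, all 6 libraries in 1 fit, the replicate number as a block, and leaving out each library.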

Additional observations from a re-analysis of the deposited data

How the results depend on the processing

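Of the 7 genes' changes under each alternative, 90 of 91 for the pab1-repressed group against the libraries labelled igo1Δ, 62 of 91 against WT and 59 of 70 for the libraries labelled igo1Δ against WT kept their direction and side of the threshold. Against WT the other 29 were calls gained. For the libraries labelled igo1Δ against WT, 7 calls were lost (5 of thi9, 1 each of thi4 and pho4), nmt1 gained a call without their replicate 1 (0.33), and its change had the opposite sign with upper-quartile scaling (-0.064), without WT replicate 1 (-0.01) and without their replicate 2 (-0.24). With all 6 libraries in 1 fit, 1 of the 7 was called higher in place of 4, and 887 genes were called in place of 3539. Over the libraries left out, 0 to 1 of the 7 was called lower.

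Between the pab1-repressed group and the libraries labelled igo1Δ, 546 genes were called (176 higher and 370 lower). DESeq2 called 1292 (563 higher and 729 lower), the fit of all 6 libraries 1681 (752 and 929), and leaving out a library gave 123 to 3866 genes. With upper-quartile scaling the median change of all genes was 0.19 in place of 0.00, calls split into 247 higher and 287 lower, and 6 of the 7 were still called lower. Against WT, where 2 genes and 1 of the 7 were called, DESeq2 called 347 genes and 6 of the 7, and the fit of all 6 libraries 150 (54 higher and 96 lower) and 6 of the 7. Leaving out a library gave 3 to 4210 genes and 2 to 7 of the 7, all lower. The causes were not tested, except that without a pab1-repressed library the spread comes from the other group, and the lone library left is assumed to vary like it.

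With the replicate block, 21 genes and 6 of the 7 were called against WT. The numbers mark no shared culture in the labels. Replicate deviations correlated at 0.16 (WT and libraries labelled igo1Δ), 0.14 (WT and pab1-repressed) and 0.0079 (labelled igo1Δ and pab1-repressed). Whether samples of the same number were handled together was not tested and cannot be told from these values. In the other comparisons the replicate block left 4 of the 7 called higher and 6 of the 7 called lower. The lowest count of the 7 genes was 49 reads, and the part of depth was not tested.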

Other observations

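Over 6031 genes, 30 were more than 4-fold lower by group means in the pab1-repressed libraries than in each of the other groups with no overlap between libraries, 6 of them from the 7 thiamine genes and 24 others. Among the 24 were 4 further thiamine genes, SPCC794.03, thi201, SPBC530.07c and SPCC18B5.05c. Outside the thiamine genes, those with most reads in WT were osr2, yak3, SPBPB21E7.09 and SPAC869.01. osr2 had 12450 and 13508 reads in the WT pair, 17999 and 19986 in the libraries labelled igo1Δ and 3217 and 4063 in the pab1-repressed libraries. yak3 had 11495 and 13490, 12684 and 15166, and 3866 and 2745 reads in the same order, and SPBPB21E7.09 had 7786 and 9232, 15138 and 15132, and 2436 and 1386, with 58.3% of its 50-base stretches repeated elsewhere in the genome. SPAC869.01 had 6345 and 6684 reads in the WT pair, 10151 and 9419 in the libraries labelled igo1Δ and 449 and 1149 in the pab1-repressed libraries. SPBPB10D8.02c was low in WT too, with 310 and 356 reads, against 4834 and 5153 in the libraries labelled igo1Δ and 16 and 55 in the pab1-repressed libraries. The asparaginase gene SPAC186.03 had 127 and 268, 417 and 737, and 6 and 10 reads, and 62% of its stretches were repeated. SPNCRNA.1317, a noncoding RNA, had 92 and 98, 88 and 62, and 5 and 1 reads. The 30 genes were taken by the rule, and those named here were chosen among them after their values were seen.

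Of the 25 genes with ATATATAAA in the 80 bases before their start, 6 (24%) were among these 30 genes, of which they made up 20%: nmt1, thi2, thi201, SPBC530.07c, SPAC186.06 and SPBPB21E7.09. This overlap is a description with no test.

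The RNA opposite the end of thi9, SPNCRNA.743, did not pass the test, with 13 and 22 reads in the WT pair, 8 and 9 in the libraries labelled igo1Δ and 102 and 52 in the pab1-repressed libraries (log2 difference from the libraries labelled igo1Δ 2.59 ± 0.54, limma, adjusted p = 0.0543). SPNCRNA.1358, opposite pho4, had 15 and 14, 89 and 80, and 27 and 108 reads, and rose with pho4 in the libraries labelled igo1Δ over WT (2.63 ± 0.27, edgeR, adjusted p = 6.43e-05).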
